A study of Rattus norvegicus with 11 samples.

Results

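The features described here are the rat genes that the deposited tables annotate as pseudogenes or as RNA genes without a protein product. A feature was taken where its identifier had the Ensembl rat form, its annotated biotype was anything other than protein coding, and it was listed for all 11 libraries; features on chromosomes 16, X, Y and the mitochondrial genome were left out. This gave 1522 members of 23093 features listed for every library. The other listed features were 10250 protein-coding genes, 153 noncoding or pseudogene features on the chromosomes left out, and 11168 assembled features without a gene name.

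The RNA came from cerebellar cortex of Sprague-Dawley rats aged 10 weeks and was sequenced from TruSeq libraries. Of the 11 libraries, 6 were homozygous for the CSB allele R571X (CSBR571X/R571X), 2 were labelled heterozygous mutant (CSBR571X/-), and 3 were wild type. The titles of the heterozygous libraries read CSB+/- instead, so whether their other allele was wild type or lost is not settled by the labels. CSB, encoded by Ercc6, is a DNA-dependent ATPase that acts in transcription-coupled repair, and its loss causes Cockayne syndrome in humans. R571X replaces an arginine codon by a stop codon. The labels named the libraries of a group only as replicates, and whether each came from a separate animal was not stated, so every p-value measures the spread between these libraries.

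Noncoding RNA genes fall into classes with different work in the cell. Small nucleolar RNAs (snoRNAs) guide chemical modification of ribosomal RNA, box C/D members guiding methylation and box H/ACA members pseudouridylation, and many are cut from introns of host genes. Small nuclear RNAs (snRNAs) form the spliceosome, small Cajal body RNAs (scaRNAs) guide modification of snRNAs, and microRNAs pair with messenger RNAs through a short seed at their 5′ end. Long intergenic noncoding RNAs (lincRNAs) are transcribed and spliced much as messenger RNAs are. Processed pseudogenes are intronless copies of messenger RNAs returned to the genome, unprocessed pseudogenes are duplicated genes that lost their function, and either can attract reads that belong to the gene they copy.

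The deposited values are reads per feature divided by 1 size factor per library, called scaled reads below. Each library held between 5406669 and 8723823 reads on its listed features. The deposited tables form 2 sets, each scaled on its own. Levels set side by side across the sets therefore rest on separate scalings. Set 1 holds homozygous replicates 1 to 3 and both heterozygous libraries; set 2 holds the other 3 homozygous libraries and all wild-type ones. Ercc6 itself had 123, 119 and 85.8 scaled reads in homozygous replicates 4 to 6, against 295, 407 and 356 in wild type (log2 difference −1.69 ± 0.22 SE, limma adjusted p = 0.0171). In set 1 it had 157, 158 and 153 scaled reads in homozygous replicates 1 to 3, against 228 and 178 in heterozygous libraries. Of the markers searched, 1 of 6 for cerebellar granule neurons was listed in all tables, Neurod1, with 35.4 to 317 scaled reads. The Purkinje cell marker Calb1 had 538 to 3364. The forebrain neuron markers Emx1 and Neurod6 together had 743 to 1669 scaled reads in homozygous, 751 to 1054 in heterozygous and 619 to 2481 in wild-type libraries, so both were present in every library of a tissue labelled cerebellar.

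Of 118 microRNA genes among the members, 38 were matched by symbol to RefSeq mature sequences of build GRCr8, and 22 of those had a mean of at least 1 scaled read. The sequences below belong to the 3 matched genes with the most reads, to let-7b, a widely known microRNA, and to genes that share a seed or a mature sequence. They were chosen after their values were seen. They are written 5′ to 3′ with the seed, bases 2 to 8, in capitals.
rno-miR-21-5p: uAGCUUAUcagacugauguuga
rno-miR-21-3p: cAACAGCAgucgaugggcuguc
rno-miR-6333: uAGGCUGGacuugaacagcccgc
rno-miR-186-5p: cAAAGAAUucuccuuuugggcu
rno-let-7b-5p: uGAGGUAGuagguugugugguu
rno-miR-9b-5p: uUCGGUUAucuagcuuuau
rno-miR-25-3p: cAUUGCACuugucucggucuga
rno-miR-92b-3p: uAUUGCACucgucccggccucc
MicroRNAs 25 and 92b shared the seed AUUGCAC, and 2 genes, Mir3597-1 and Mir3597-3, were listed with the same miR-9b-5p. In these libraries the reads lie on the precursor genes. Mir21, whose mature product is abundant in many tissues, averaged 13.0 scaled reads and ranged from 7.21 to 17.4 over the 11 libraries. Mir6333 averaged 8.74, Mir186 8.1 and Mirlet7b 3.27 scaled reads. Mirlet7b had 14.9 scaled reads in heterozygous replicate 1 and at most 5.30 in every other library.

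The 1522 members were spread over 16 biotypes. There were 639 lincRNAs, 200 pseudogenes with no further type, 161 snoRNAs, 150 processed pseudogenes, 118 microRNA genes and 77 snRNAs. Smaller classes were 40 processed transcripts, 32 miscellaneous RNAs, 28 antisense RNAs, 21 unprocessed pseudogenes, 16 ribosomal RNAs, 13 features of the biotype TEC, transcripts that await an experimental check, 10 scaRNAs, 8 sense intronic RNAs, 6 transcribed processed pseudogenes and 3 ribozymes. A mean of at least 1 scaled read was reached by 1067 members, or 70.1%, against 90.5% of the protein-coding genes. Only 267 members reached a mean of 10, and 467 had a read in every library. Detection followed the class: 36 of 77 snRNAs and 69 of 118 microRNA genes were tested, against 37 of 40 processed transcripts and 174 of 200 pseudogenes.

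**Figure D1:**
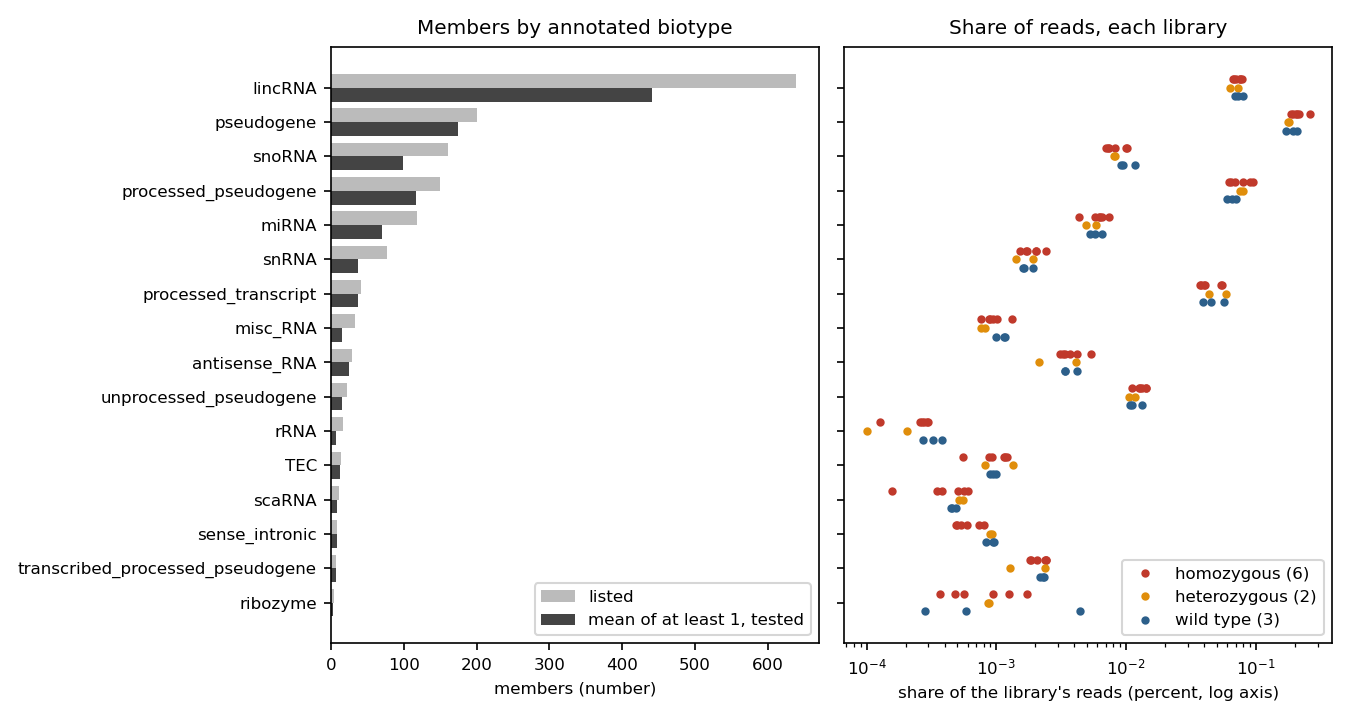
Left, number of members of each annotated biotype that were listed and that had a mean of at least 1 scaled read; right, share of each library's reads on each biotype (percent, log axis), 1 point per library for the 6 homozygous, 2 heterozygous and 3 wild-type libraries. LincRNAs were the most numerous class with 639 members, while the 200 pseudogenes took the most reads, 0.170 to 0.261% of a library.

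Members took 0.443% ± 0.0288 of the reads in homozygous libraries (SD, n = 6), 0.411% ± 0.00137 in heterozygous libraries (SD, n = 2) and 0.418% ± 0.00475 in wild-type libraries (SD, n = 3). The homozygous libraries spanned 0.413 to 0.487% and overlapped the wild-type libraries; replicates 4 and 6, with 0.470% and 0.487%, were the highest of the 11. Pseudogenes took 0.211% ± 0.0267 of the reads in homozygous, 0.179% ± 0.00371 in heterozygous and 0.191% ± 0.0189 in wild-type libraries (SD, n = 6, 2 and 3). LincRNAs took 0.0722% ± 0.00464 in homozygous, 0.0680% ± 0.00653 in heterozygous and 0.0742% ± 0.00541 in wild-type libraries, and the libraries of the 3 groups overlapped. The reads were concentrated in few members. The 3 most abundant held 18.5% of all member reads, the first 10 held 35.4% and the first 100 held 77.5%.

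Position differed between classes. Of 161 snoRNAs, 122 lay inside another listed feature on the same strand, as did all 10 scaRNAs, all 8 sense intronic RNAs and 56 of 118 microRNA genes. Of 77 snRNAs, 22 lay inside another feature and 36 overlapped none. Among lincRNAs, 529 of 639 overlapped no other listed feature, and 26 of 28 antisense RNAs overlapped a feature on the opposite strand. Whether reads were counted by strand is not given in the sources used here, so reads of a member cannot be told apart from those of a feature on the opposite strand, or from those of a host around it. Annotations differed in places. Of 136 members matched to RefSeq by symbol, 54 are protein coding there. These 54 held between 19.98 and 26.3% of the member reads of a library, and 31 of them were among the 40 processed transcripts.

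Pseudogenes headed the list by level. AABR07073038.1, on the minus strand at chr4:118327533-118328602 of rn6, averaged 2179 scaled reads. It had 2357, 2323, 2298, 2235, 1912 and 3036 in homozygous replicates 1 to 6, against 1767 and 1856 in heterozygous libraries and 1617, 2271 and 2295 in wild type. AC109958.1 (chr13:93560364-93561301, minus strand) averaged 1793, and homozygous replicate 6 was again the highest library, with 2799 scaled reads. Sephs2, listed as a pseudogene at chr1:198719162-198721476 but protein coding in RefSeq, encodes selenophosphate synthetase 2, which makes the selenium donor for selenoproteins and is itself a selenoprotein. It had 951 to 1747 scaled reads in homozygous, 849 and 1017 in heterozygous and 806 to 1127 in wild-type libraries.

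Per length, the processed pseudogene Rn60_17_0157.2, 400 bases at chr17:15656555-15656954, was the highest of the 83 named members, with 2227 scaled reads per kilobase, followed by AABR07073038.1 with 2040.2 and AC109958.1 with 1915. LOC100361008, protein coding in RefSeq, is described as like Cox5a, a subunit of cytochrome c oxidase of the respiratory chain, and had 1182 scaled reads per kilobase. LOC300249 is described as similar to ribosomal protein L4 and averaged 286 scaled reads. Reads of such members are uncertain where a near-identical copy exists, because how reads with several matches were counted is not given in the sources used here.

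A pair of named pseudogenes could be set beside the gene each copies. Hmgb1-ps4, a copy of the chromatin protein gene Hmgb1, had 607 to 835 scaled reads in the 11 libraries. The Hmgb1 entry itself was listed at 0 in 8 libraries and had at most 2.19 scaled reads in the other 3. A low entry need not mean a silent gene. The Shank1 entry averaged 7.83 scaled reads, while an unnamed assembled feature overlapping it on the same strand averaged 788. Whether reads of Hmgb1 were counted under another feature was not tested. RGD1562690, described as similar to lactate dehydrogenase A, had 237, 160.0, 169, 189, 175 and 229.9 scaled reads in homozygous replicates 1 to 6, against 85.5 and 81.8 in heterozygous libraries and 108, 268 and 167 in wild type. Ldha had 3073 to 8976 scaled reads, and RGD1562690 stood at 1.91 to 3.56% of it in every library. The heterozygous libraries were the lowest 2 for RGD1562690; for Ldha, heterozygous replicate 2 was the lowest library and wild-type replicate 2 the highest, as it was for RGD1562690.

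Among lincRNAs, LOC102549506 was the most abundant, with a mean of 619 scaled reads. It lies on the minus strand at chr17:7602304-7619181. AABR07011996.1 (chr2:180878153-180883459) averaged 304 and AABR07034669.1 (chr11:83412723-83417981) averaged 299. Of 26 names of long noncoding RNAs known in brain, only 1 matched the name of a member, Pvt1, a lincRNA gene known from the Myc locus. The Dlx6 antisense RNA, searched as Dlx6os1 and Dlx6-as1, is listed as Dlx6as and so was missed by that search. Pvt1 had 16.6 to 33.9 scaled reads in homozygous, 18.3 and 19.8 in heterozygous and 10.9 to 25.7 in wild-type libraries. None of 10 imprinted noncoding RNAs, 18 snoRNA host genes and 3 nuclear-body RNAs searched by name was a member; they are not analysed here.

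Dlx6as, the antisense RNA of the Dlx6 homeobox gene known from forebrain interneurons, was the most abundant antisense RNA, with a mean of 108 scaled reads. It had 75.8 to 241 scaled reads in homozygous, 61.0 and 76.8 in heterozygous and 62.4 to 145 in wild-type libraries. Dlx6, on the opposite strand, had 11 to 74.8 scaled reads, and homozygous replicate 4 was the highest library for both genes. LOC102555023, opposite Klhl14, ranged from 1.06 to 44.6 scaled reads; its highest library was heterozygous replicate 1 and its lowest homozygous replicate 2.

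The guide RNAs were read at low levels. SNORA62 (chr8:128807094-128807249), an H/ACA snoRNA inside the ribosomal protein gene Rpsa, averaged 55.3 scaled reads, against 10762 for Rpsa. SCARNA2 averaged 12 scaled reads and ranged from 3.40 to 22.2. No snRNA reached a mean of 10, and the highest, a U6 copy at chr11:87547801-87547907, averaged 7.91. No rRNA feature exceeded a mean of 2.93 scaled reads.

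A feature listed as Rmrp, the name of the RNA of the RNase MRP complex that cuts ribosomal RNA precursors, varied widely. It lies on chromosome 15, and its identity rests on the listed name alone, since its sequence was not examined. It had 15.1, 8.48, 47.3, 81.8, 54.4 and 19.2 scaled reads in homozygous replicates 1 to 6, against 39.7 and 30.5 in heterozygous libraries and 228, 12.2 and 21.6 in wild type. A second feature annotated as RNase MRP (chr5:58994682-58994953) had 49.2 scaled reads in wild-type replicate 1, its highest library too. Parp2, on the strand opposite Rmrp, had 169 scaled reads in that library, within its range of 155 to 253.

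The first comparison asked which members differ between homozygous mutant and wild-type cerebellum. No member passed an adjusted p of 0.05 by limma, fitted over all 20956 features with a mean of at least 1 (lowest member adjusted p 0.303). Over all features tested 8 passed, or 0.0382% (0.0143% higher and 0.0239% lower in homozygous libraries). edgeR on the recovered reads also called 0 members, with 5 of all 20956 features. DESeq2 called 1 member, with 37 of all features. At an unadjusted p under 0.05 by limma there were 67 of 1067 members, or 6.28%, against a background of 6.35%. Of these, 30 were higher and 37 lower in homozygous libraries, against 3.34% and 3.01% of all features in those directions. The 3 homozygous libraries of set 2 did not overlap the 3 wild-type libraries for 138 members, or 12.9%, against 11.4% of all features. They were higher in homozygous libraries for 74 and lower for 64, against 6.14% and 5.27% of all features. The median log2 difference of the members was 0.02, against −0.0011 for all features, with 547 members higher and 520 lower. Beyond a 2-fold difference lay 16.1% of the members and 10.0% of all features.

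SNORA44, an H/ACA snoRNA, had the smallest p among the members lower in homozygous libraries that had a mean of at least 10. It had 38.6, 26.1 and 15.8 scaled reads in homozygous replicates 4 to 6, against 207, 81.7 and 98 in wild type (log2 difference −2.19 ± 0.54 SE, adjusted p = 0.471). The groups did not overlap. In set 1, which the contrast did not use, it had 29.6, 9.54 and 43.2 scaled reads in homozygous replicates 1 to 3 and 9.92 and 14.7 in heterozygous libraries, so all 8 homozygous and heterozygous libraries lay below the 3 wild-type libraries. DESeq2 called this difference (adjusted p = 0.0237). SNORA44 lies on the minus strand at chr8:104069768-104069894, opposite an unnamed assembled feature that averaged 320.1 scaled reads and had a log2 difference of −0.09 in the same contrast.

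AABR07058831.1, a processed pseudogene at chr7:138895079-138895597, had 8.18, 7.93 and 5.00 scaled reads in homozygous replicates 4 to 6, against 65.7, 46.0 and 44.8 in wild type (log2 difference −2.73 ± 0.85 SE, adjusted p = 0.640). In set 1 homozygous replicates 1 and 3 had 2.16 and 3.32, homozygous replicate 2 had 62.5, and the heterozygous libraries had 53.3 and 61.0. Thus 5 of 6 homozygous libraries were at or below 8.18 and the other 6 libraries of the study were at or above 44.8. Leaving out homozygous replicate 2, which is not in this contrast but goes against the pattern, left the difference at −2.73, with an SE of 0.39 and a limma adjusted p of 0.0299. With only the 2 groups compared, which also leaves it out, the limma adjusted p was 0.143. Rn60_19_0375.4, an antisense RNA opposite the palmitoyltransferase gene Zdhhc1, had 8.18, 2.27 and 5.00 scaled reads in homozygous replicates 4 to 6, against 21.9, 15.0 and 15.8 in wild type. Homozygous replicates 1 to 3 had 14.4 to 20.8 scaled reads of it, within the wild-type range or just below it. With the replicate number as a block and no set term, homozygous replicates 4 to 6 share their number with no other library. They drop out of that contrast, which then compares homozygous replicates 1 to 3 with wild type across the separately scaled sets. There the log2 difference of Rn60_19_0375.4 was 0.069, against −1.70 in the main fit. LOC102549506 had 466, 475 and 312 scaled reads in homozygous replicates 4 to 6, against 611, 1113 and 627 in wild type (log2 difference −0.87 ± 0.27 SE, adjusted p = 0.640).

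Among members higher in homozygous libraries with a mean of at least 10, AABR07015346.1, a processed pseudogene at chr14:52661966-52662217, had the smallest p. It had 281, 165 and 156 scaled reads in homozygous replicates 4 to 6, against 101, 76.0 and 100.5 in wild type (log2 difference 1.07 ± 0.28 SE, adjusted p = 0.494). Homozygous replicates 1 to 3 had 84.4 to 122 scaled reads, and the heterozygous libraries 121 and 156. LOC100361008 had 1093, 1003 and 740.5 scaled reads in homozygous replicates 4 to 6, against 307, 12.2 and 472 in wild type (log2 difference 2.91 ± 0.94 SE, adjusted p = 0.670). Its lowest value, in wild-type replicate 2, lay far below the other 10 libraries, which had at least 241. AC118490.1, a pseudogene, had 63.1, 46.5 and 53.3 scaled reads in homozygous replicates 4 to 6, against 35.0, 32.8 and 19.9 in wild type. It had 49.0, 42.4 and 41.5 in homozygous replicates 1 to 3, so its 6 homozygous libraries lay above the 3 wild-type ones. With all libraries scaled together, 23 members, or 2.16%, had 6 homozygous libraries that did not overlap the 3 wild-type libraries, against 1.98% of all features. Of these, 10 were higher and 13 lower in homozygous libraries, against 1.08% and 0.897% of all features.

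**Figure D2:**
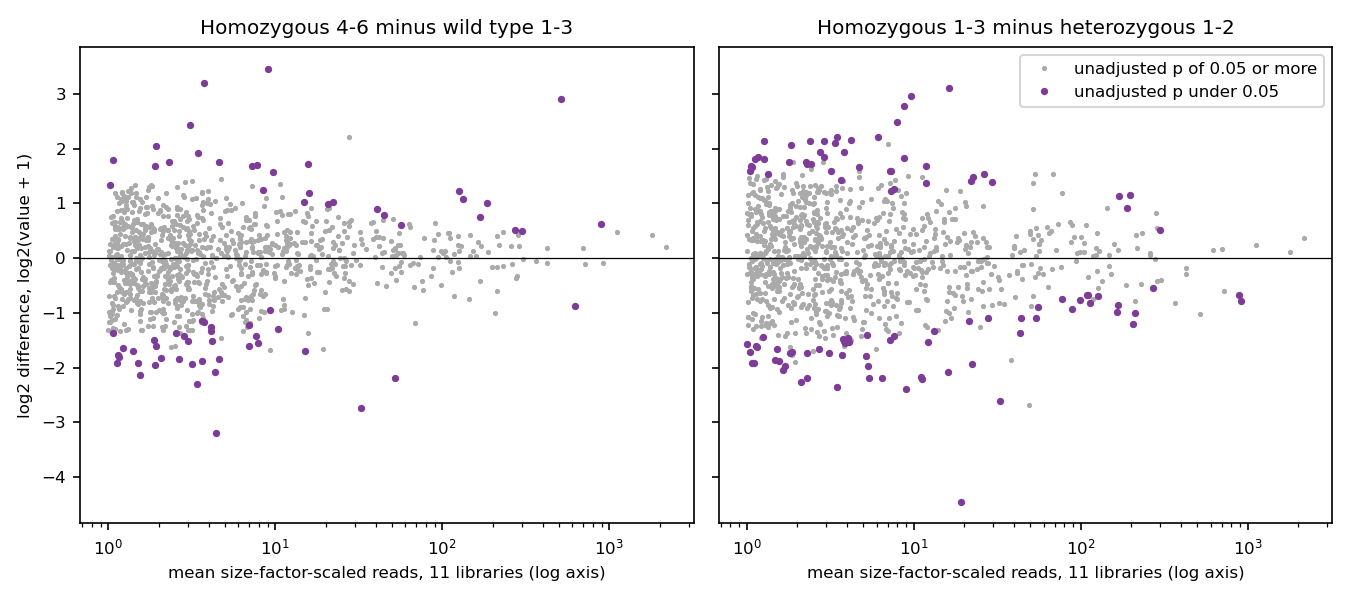
Log2 difference of each of the 1067 tested members (1 point each, on the log2(value + 1) scale) against its mean scaled reads over 11 libraries (log axis): left, homozygous replicates 4 to 6 minus wild type; right, homozygous replicates 1 to 3 minus heterozygous. Coloured points had an unadjusted limma p under 0.05, 67 members on the left and 106 on the right; none passed after adjustment over all features.

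The second comparison set homozygous against heterozygous libraries within set 1. No member and no feature passed an adjusted p of 0.05 by limma (0.0% of 20956; lowest member adjusted p 0.200). edgeR called 0 members and 0 features. DESeq2 called 3 members, with 205 of all 20956 features. At an unadjusted p under 0.05 by limma there were 106 members, or 9.93%, against a background of 12.1%. Of these, 44 were higher and 62 lower in homozygous libraries, against 6.16% and 5.96% of all features. The groups of 3 and 2 libraries did not overlap for 287 members, or 26.9%, against 30.3% of all features. They were higher in homozygous libraries for 137 and lower for 150, against 15.2% and 15.1% of all features. The median log2 difference was 0.03 for the members and 0.04 for all features.

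AABR07051308.1, a lincRNA at chr3:4730990-4772154, had 1.44, 0 and 0.831 scaled reads in homozygous replicates 1 to 3, against 33.5 and 36.6 in heterozygous libraries (log2 difference −4.45 ± 0.94 SE, adjusted p = 0.200). In set 2, homozygous replicates 5 and 6 had 4.53 and 1.67, homozygous replicate 4 had 49.1, and wild type had 25.2, 33.8 and 24.9. Again 5 of 6 homozygous libraries lay below all other libraries, and the exception was replicate 4. Its adjusted p was 0.00725 by DESeq2. Leaving out homozygous replicate 4, which is not in this contrast, left the difference of AABR07051308.1 at −4.45, with an SE of 0.57 and a limma adjusted p of 0.0417; with only the 2 groups compared, the limma adjusted p was 0.114. AABR07072207.1, a pseudogene at chr10:105564535-105565162, had 111, 150.5 and 125 scaled reads in homozygous replicates 1 to 3, against 217 and 248 in heterozygous libraries (log2 difference −0.86 ± 0.24 SE, adjusted p = 0.269). In set 2 the order was the other way, with 209, 240.2 and 177 in homozygous replicates 4 to 6 and 132, 108 and 129 in wild type. Its homozygous libraries of set 1 lay close to wild type, and those of set 2 close to the heterozygous libraries.

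Rn50_10_0698.6 (chr10:70100661-70101169) and AC095947.2 (chr10:70109549-70109623) are processed pseudogenes near each other, both opposite the chaperonin gene Cct6b. Rn50_10_0698.6 had 65.6, 67.8 and 55.7 scaled reads in homozygous replicates 1 to 3, against 114 and 128 in heterozygous libraries (log2 difference −0.93 ± 0.26 SE, adjusted p = 0.263; 0.0488 by DESeq2). AC095947.2 had 33.9, 30.7 and 25.7, against 66.9 and 63.5. The Cct6b entry averaged 8.27 scaled reads, below either pseudogene. Whether reads of Cct6b were counted under another feature was not tested. Itgb5, annotated as a processed transcript but protein coding in RefSeq, encodes the integrin subunit β5. It had 664, 719 and 1034 scaled reads in homozygous replicates 1 to 3, against 1124 and 1647 in heterozygous libraries (log2 difference −0.78 ± 0.24 SE, adjusted p = 0.293), and 729 to 841 in homozygous replicates 4 to 6 and 751 to 991 in wild type.

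Of the members higher in homozygous libraries with a mean of at least 10, AABR07019254.2, a lincRNA at chr15:96790502-96817727, had the smallest p. It had 14.4, 14.8 and 15.8 scaled reads in homozygous replicates 1 to 3, against 0 and 2.44 in heterozygous libraries (log2 difference 3.11 ± 0.85 SE, adjusted p = 0.258). Wild type had 3.28, 34.7 and 29.9, which spanned both groups. Csmd3, a CUB and Sushi domain gene listed as a processed transcript, had 352, 158 and 204 scaled reads in homozygous replicates 1 to 3, against 119 and 85.5 in heterozygous libraries (log2 difference 1.15 ± 0.34 SE, adjusted p = 0.278). RGD1562690 had a log2 difference of 1.14 ± 0.34 SE (adjusted p = 0.278), and Ldha one of 0.63 ± 0.28 SE (adjusted p = 0.397).

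The third comparison, heterozygous against wild type, joins the sets through their homozygous libraries, so its log2 difference is that between heterozygous and homozygous in set 1 added to that between homozygous and wild type in set 2. It therefore repeats the libraries of both other comparisons, and can differ from the plain ratio of the heterozygous and wild-type means. No member and no feature passed (0.0%; lowest member adjusted p 0.363 by limma). edgeR called 0 members and 0 features. DESeq2 called 2 members, with 27 of all 20956 features. At an unadjusted p under 0.05 by limma there were 91 members, or 8.53%, against 7.96% of all features. Of these, 47 were higher and 44 lower in heterozygous libraries, against 3.9% and 4.07% of all features. With all libraries scaled together, the groups did not overlap for 249 members, or 23.3%, against 25.2% of all features. They were higher in heterozygous libraries for 149 and lower for 100, against 13.3% and 11.9% of all features. AABR07072207.1 had the smallest p: 217 and 248 scaled reads in heterozygous libraries, against 132, 108 and 129 in wild type (log2 difference 1.61 ± 0.33 SE, adjusted p = 0.363; 0.00453 by DESeq2). SNORA44 had 9.92 and 14.7 scaled reads in heterozygous libraries, against 207, 81.7 and 98 in wild type (log2 difference −3.08 ± 0.81 SE, adjusted p = 0.585; 0.0493 by DESeq2).

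**Figure D3:**
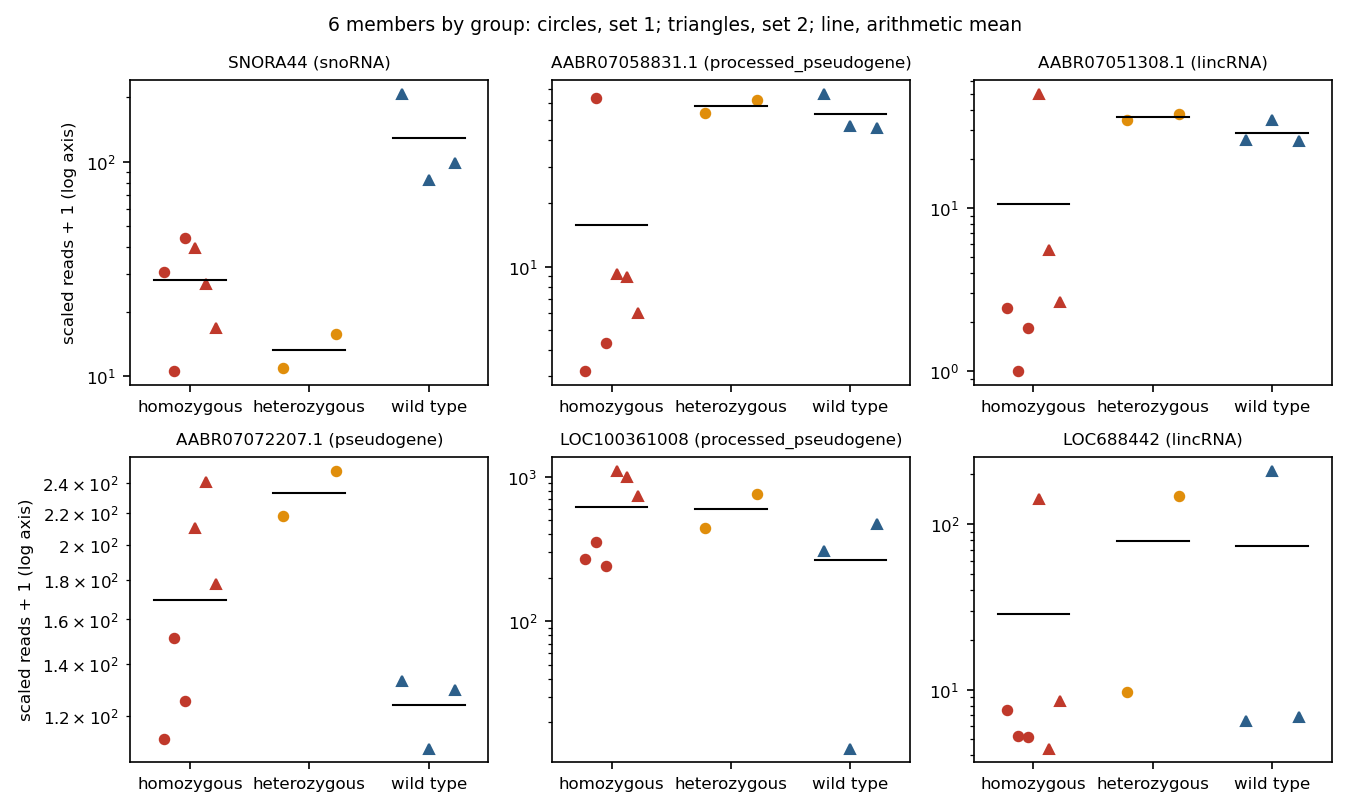
Scaled reads plus 1 (log axis) of 6 members in each library, by group (homozygous, heterozygous, wild type); circles are libraries of set 1, triangles of set 2, and lines arithmetic means. SNORA44 lay at or below 43.2 scaled reads in all 8 homozygous and heterozygous libraries and at or above 81.7 in wild type, while AABR07058831.1, AABR07051308.1 and LOC688442 each had single libraries far from others of their group.

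By class, counts passing the adjusted threshold were 0 for each biotype in each comparison by limma. Of 98 snoRNAs tested, 43 were higher and 55 lower in homozygous than in wild-type libraries (median log2 difference −0.17), and 50 were higher and 48 lower in homozygous than in heterozygous libraries (median 0.02). Box C/D snoRNAs had medians of −0.21 in the first comparison (37 tested) and 0.08 in the second. Box H/ACA snoRNAs had medians of −0.02 (53 tested) and 0.03. The 36 tested snRNAs had medians of −0.12 and 0.12, and the 69 tested microRNA genes −0.14 and 0.08. The 116 processed pseudogenes had medians of 0.14, with 72 higher and 44 lower against wild type, and −0.13, with 46 higher and 70 lower against heterozygous libraries. The 34 tested RNAs made by polymerase III or belonging to RNase complexes had medians of −0.06 and −0.03. The 8 tested Cajal body RNAs had medians of −0.20 and −0.43. Of 3 pseudogenes named after ribosomal proteins, Gapdh or RT1 genes, 2 were tested. Both were lower than in wild type (median −1.31) and higher than in heterozygous libraries (median 1.38), and neither passed. These medians rest on features near the floor. The 3 together had 0 to 13.7 scaled reads per library, with 0 in homozygous replicate 4 and in heterozygous replicate 1. For snoRNAs in the first comparison the quartiles of the differences were −0.66 and 0.29.

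Many members ranged widely over the libraries. Of 282 members with at least 20 scaled reads in some library, 133 had a log2 range of at least 2 over the 11 libraries and 32 a range of at least 4. The next members were named after their values were seen. LOC688442, a lincRNA at chr10:1563390-1567731 described as similar to limkain b1, had 140.3 scaled reads in homozygous replicate 4, 147 in heterozygous replicate 2 and 207 in wild-type replicate 2, and 3.40 to 8.68 in the other 8 libraries. Each genotype thus had 1 high library. Rn60_7_1214.2, a processed pseudogene at chr7:121342679-121343013, had 0, 0, 2.49, 108, 66.9 and 28.3 scaled reads in homozygous replicates 1 to 6, against 0 and 1.22 in heterozygous libraries and 63.5, 32.8 and 0 in wild type. It was high in the 3 homozygous libraries of set 2 and near 0 in those of set 1. AC127140.1, a lincRNA, had 30.4, 11.3 and 32.5 scaled reads in homozygous replicates 4 to 6, against 8.75, 0 and 0 in wild type; without wild-type replicate 1 its limma adjusted p was 0.0313. LOC100909609, described as like the dedicator of cytokinesis protein 1, had at most 1.44 scaled reads in homozygous libraries and 0 in both heterozygous ones, against 2.19, 21.6 and 22.4 in wild type. LOC102553828, an unprocessed pseudogene, had 105 scaled reads in heterozygous replicate 1 and at most 13.4 in every other library.

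The homozygous libraries of the 2 sets can also be set against each other. With all libraries scaled together, replicates 4 to 6 did not overlap replicates 1 to 3 for 121 members, or 11.3%, against 10.7% of all features. They were higher in replicates 4 to 6 for 66 and lower for 55, against 5.85% and 4.84% of all features. The share is close to the 12.9% of members that did not overlap between homozygous replicates 4 to 6 and wild type. AABR07068590.1, a lincRNA at chr9:110399439-110403370, is an example. It had 5.77, 5.30 and 5.81 scaled reads in homozygous replicates 1 to 3 and 16.4, 18.1 and 17.5 in replicates 4 to 6.

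Dio3 and Col6a3 are members that RefSeq holds as protein coding. Dio3 encodes the deiodinase that inactivates thyroid hormone, a selenoprotein whose in-frame stop codon is read as selenocysteine, and it is listed as a pseudogene at chr6:134627278-134629138. Col6a3, a chain of collagen VI of the extracellular matrix, is listed as a processed transcript. Their promoters, the 250 bases before the RefSeq start in build GRCr8, are shown because levels of both were high in some of the same libraries. Capitals mark any match on either strand to the TATA-box motif TATAAA, the CAAT-box motif CCAAT or the GC-box motif GGGCGG.
Dio3, chr6:135106822-135107071, plus strand: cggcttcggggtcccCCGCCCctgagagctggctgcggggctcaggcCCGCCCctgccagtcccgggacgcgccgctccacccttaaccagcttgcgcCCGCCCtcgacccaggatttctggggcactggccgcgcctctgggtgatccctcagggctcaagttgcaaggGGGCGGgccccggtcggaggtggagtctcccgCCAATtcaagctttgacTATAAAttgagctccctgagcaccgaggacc
Col6a3, chr9:98886959-98887208, minus strand: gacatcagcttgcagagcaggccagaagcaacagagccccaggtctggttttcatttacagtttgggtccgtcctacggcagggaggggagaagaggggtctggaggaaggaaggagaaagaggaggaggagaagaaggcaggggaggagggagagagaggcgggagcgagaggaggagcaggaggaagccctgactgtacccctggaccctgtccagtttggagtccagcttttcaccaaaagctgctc
The Dio3 window held 1 TATA-box, 1 CAAT-box and 4 GC-box matches, and the Col6a3 window held none of these. Of 33469 promoters of the same length, 12.9% held the TATA-box motif, 34.0% the CAAT-box motif and 30.5% the GC-box motif. The motifs do not overlap one another in the Dio3 window.

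Dio3 had 231, 14.8, 91.4, 14.0, 44.2 and 12.5 scaled reads in homozygous replicates 1 to 6, against 124 and 3.66 in heterozygous libraries and 169.6, 24.4 and 24.1 in wild type. Col6a3 had 123, 11.7, 111, 16.4, 89.5 and 13.3 in homozygous, against 21.1 and 15.9 in heterozygous libraries and 146, 12.2 and 25.7 in wild type. AABR07004228.1, a lincRNA at chr1:131380879-131431948, had 88.7, 18.0, 143, 15.2, 36.3 and 30.8 scaled reads in homozygous libraries, against 139 and 14.7 in heterozygous libraries and 106, 5.63 and 15.8 in wild type. All 3 members were high in homozygous replicates 1 and 3 and in wild-type replicate 1, and the groups overlapped for each. The meningeal markers Col1a1, Dcn and Lum, all 3 listed, had a summed level of 121 to 1079 scaled reads in homozygous, 199 to 323 in heterozygous and 125 to 1448 in wild-type libraries. The sum was 1064, 1079 and 989 in homozygous replicates 1, 3 and 5 and 1448 in wild-type replicate 1, and at most 426 in the other 7 libraries. Most of it was Col1a1, with 85.0 to 1371; Lum had 21.6 to 103, and Dcn had at most 9.38 and was at 0 in 3 libraries. The part of meningeal tissue in the levels of these members was not tested. In bulk tissue, fewer cells of a type and less RNA per cell cannot be told apart.

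**Figure D4:**
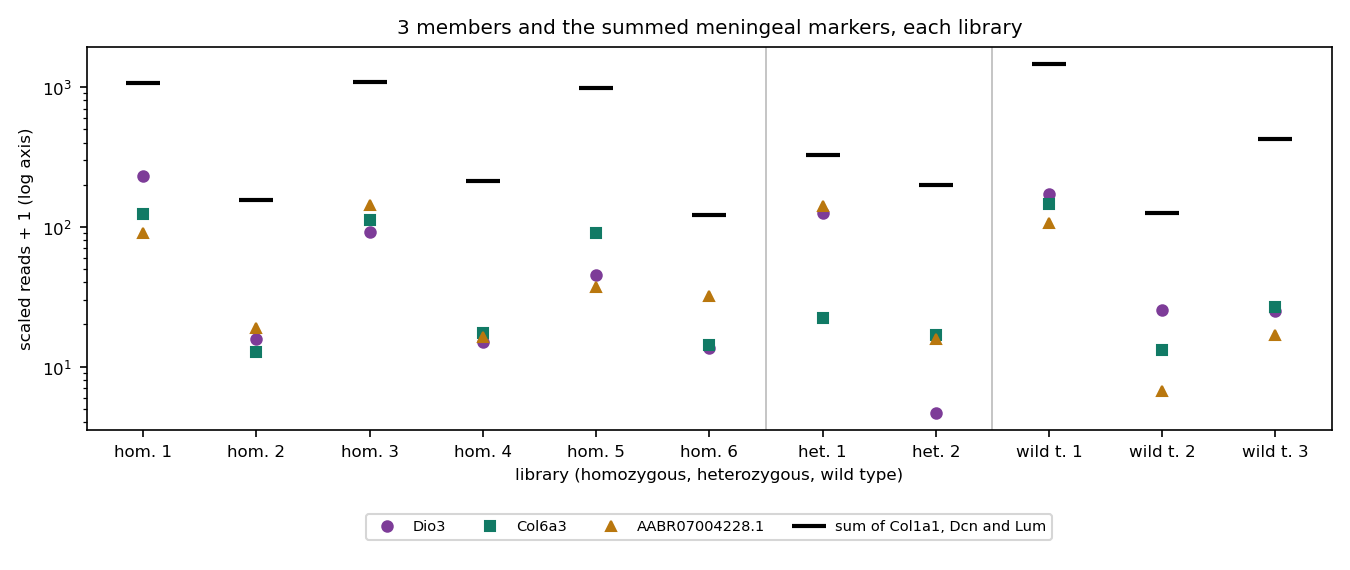
Scaled reads plus 1 (log axis) of Dio3, Col6a3 and AABR07004228.1 in each of the 6 homozygous, 2 heterozygous and 3 wild-type libraries, with the summed meningeal markers Col1a1, Dcn and Lum as bars. The marker sum was highest in wild-type replicate 1, with 1448, and the 3 members were all at or above 88.7 in homozygous replicates 1 and 3 and wild-type replicate 1.

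The spread between libraries of a group fell with level, for members as for protein-coding genes. At means of 1 to 3 scaled reads the median SD within groups on the log2(value + 1) scale was 0.862 for 501 members and 0.871 for 1476 protein-coding genes. From 10 to 30 it was 0.571 for 142 members and 0.656 for 1452 coding genes. At 100 or more it was 0.359 for 58 members and 0.286 for 3193 coding genes. Of the tested members, 501 of 1067 lay in the lowest range, where a 2-fold difference between groups of 3 libraries is close to the spread of single libraries.

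**Figure D5:**
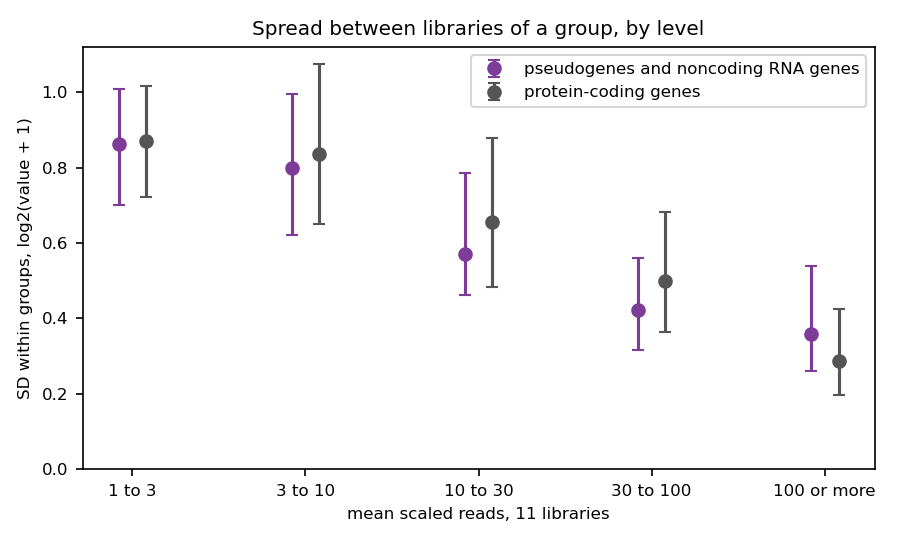
Median SD between libraries of a group, log2(value + 1), with bars from the first to the third quartile, for pseudogenes and noncoding RNA genes and for protein-coding genes in 5 ranges of mean scaled reads. The medians fell to 0.359 for members and 0.286 for coding genes at 100 scaled reads or more.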

How the data were processed

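Whole-tissue RNA of 11 libraries was measured per feature. Per the submitters' processing notes, reads were checked with FastQC and aligned with HISAT2 2.0.4 to rn6 (for the counter, annotation release and strand use: not given in the sources used here). Signal values as deposited are gene counts divided by the authors' size factor: 100% of the values were whole multiples of 1 read within a tolerance of 0.001, so reads were recovered. Features listed and shared size factors showed 2 sets normalized separately, of 24436 and 24792 features, so groups were tested within sets. Scaled reads were tested on the log2(value + 1) scale, which understates changes of low features, with limma 3.58.1 (trend), group and set terms, a mean of at least 1, and Benjamini-Hochberg adjustment over all 20956 features. edgeR 4.0.16 and DESeq2 1.42.0 on recovered reads were alternatives, with other pseudocounts, filters, scalings and libraries left out. The functions were tested on simulated data. Coordinates are rn6 unless GRCr8 is named.

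Members and lists were chosen with earlier results of these data known. Named were members past the threshold; where fewer than 4 passed in a direction, up to 6 of smallest p with a mean of at least 10; the 3 of highest mean per biotype; and up to 4 per list. The microRNAs whose sequences are shown and 7 other members were named after their values were seen. Replicate numbers were not used as pairs in the main test.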

Additional observations from a re-analysis of the deposited data

Results flagged for a closer look

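In each result below, 1 of the 6 homozygous libraries stood apart from the other 5 by a gap larger than the 95% limit for its group. The limit was applied to scaled reads and shares without a log. For normally distributed values, chance alone flags about 1 in 20 such groups. Without a log, and with scaled reads from 2 sets scaled separately, the rate here was not established. In all, 83 named members and 17 shares were examined. The rate of 1 in 20 also does not hold for members named from these same values. Dio3 and LOC688442 are among the 7 named after their values were seen, and other members were named for a small p. Homozygous replicate 2 had 62.5 scaled reads of the processed pseudogene AABR07058831.1, against 2.16 to 8.18 in the other homozygous libraries, and 40.3 of AABR07065598.1, against 19.3 to 26.0. Homozygous replicate 4 was apart for 4 members. It had 49.1 scaled reads of the lincRNA AABR07051308.1, against 0 to 4.53 in the others, and 140.3 of LOC688442, against 3.40 to 7.5. It had 241 scaled reads of Dlx6as, against 75.8 to 121, and 396 of the pseudogene AABR07042821.1, against 121 to 204. Homozygous replicate 1 had 231 scaled reads of Dio3, against 12.5 to 91.4. The meningeal marker sum did not set that library apart. It was 1064 scaled reads there, and 1079 and 989 in homozygous replicates 3 and 5, where Dio3 had 91.4 and 44.2. Homozygous replicate 6 had 2799 scaled reads of AC109958.1, against 1477 to 1929.6, and pseudogenes took 0.261% of its reads, against 0.185 to 0.214% in the others. Its rRNA features took 0.000128% of its reads, against 0.000257 to 0.000298%. That share rests on very few reads. The median rRNA feature averaged 0.66 scaled reads and the highest 2.93.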

How the results depend on the processing

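Of the alternatives that kept all 11 libraries or only the 2 groups compared, only DESeq2 called members. Between homozygous and wild type it called 1 member (SNORA44), with 37 of all 20956 features. Between homozygous and heterozygous libraries it called 3 (AABR07051308.1, LOC102553828, Rn50_10_0698.6), with 205 of all features. Between heterozygous and wild type it called 2 (AABR07072207.1, SNORA44), with 27 of all features. Leaving out 1 library at a time gave 0 to 1 calls in the first comparison (AABR07058831.1 without homozygous replicate 2, AC127140.1 without wild-type replicate 1), 0 to 1 in the second (AABR07058831.1 without homozygous replicate 2, AABR07051308.1 without homozygous replicate 4, which the second comparison does not use, as the first does not use replicate 2) and 0 in the third. Without homozygous replicate 2, 11 of all 20956 features passed in the first comparison and 2 in the second. Without wild-type replicate 1, 10 features passed in the first, and without homozygous replicate 4, 3 passed in the second. The share of reads was also taken with reads on features that have an Ensembl identifier as the denominator. Members then took 0.624% of the reads in homozygous, 0.582% in heterozygous and 0.602% in wild-type libraries. Equal replicate numbers were not treated as pairs in the main test. Correlations of their deviations ran from −0.0877 to 0.153. Homozygous replicate 1, heterozygous replicates 1 and 2 and wild-type replicate 2 correlated best with a library of their own number. Homozygous replicates 2 and 3 and wild-type replicates 1 and 3 did not. Whether equal numbers pair the samples is not settled by these values. With the replicate block and no set term, 0 members passed in each comparison. The homozygous libraries of set 2 then drop out of the comparison with wild type, because they share their number with no other library. That setting compares the homozygous libraries of set 1 with wild type across the separately scaled sets. It is therefore no check of the contrast within set 2. With these other homozygous libraries, 2 directions against wild type turned, to 0.069 for Rn60_19_0375.4 and 0.30 for Rn50_1_0959.1. Over all 22 alternatives, the block included, 771 values of the members of smallest p kept direction and side of the threshold, 7 passed it and 2 reversed. In the first 2 comparisons, leaving out a library outside the contrast, or fitting only the 2 groups compared, could not change the log2 difference. Direction was therefore fixed in advance in those settings. These members were also picked for small p in the same values, so the tally does not measure how firm their differences are. Depth limits the 455 members with a mean under 1, which were not tested.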

Other observations

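Noncoding or pseudogene features listed for only 1 of the 2 sets were left out of all comparisons: 388 were listed only for set 1 and 459 only for set 2. Their levels were low. The highest mean was 2.66 scaled reads in set 1, for a SNORD113 feature, and 2.58 in set 2, for AABR07060560.3.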
